A study of Mus musculus with 6 samples.

Results

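The genes described here are those whose symbols begin with Psma, Psmb, Psmc, Psmd or Psme followed by a digit, without Psmb8 and Psmb9, which comes to 43 of the 24318 gene symbols in the count table. The rule uses the symbols alone. Cultured mouse brain astrocytes were compared between wild-type cells (WT, 3 libraries) and cells lacking ADGRB1 (KO, 3 libraries), an adhesion G protein-coupled receptor that takes part in engulfment, by poly-A RNA sequencing. The question of the design is which transcripts change when the receptor is lost. The labels give no strain, age, sex, culture age or deletion design. They do not state if replicates are separate animals or cultures, so each p-value reflects the scatter of these 6 libraries, which may be technical.

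The 26S proteasome is the protease complex that degrades ubiquitin-tagged proteins. Its 20S core is a stack of rings built of alpha subunits, which gate the channel, and beta subunits, some of which cut peptide bonds. A 19S cap holds a ring of ATPases that unfold substrates and a set of non-ATPase subunits that bind ubiquitin, remove it and hold the cap together. Other caps, the PA28 complexes and PA200, open the core without ubiquitin, and interferon can replace the catalytic beta subunits by inducible forms. In mammals the transcription factor NRF1, encoded by Nfe2l1, raises proteasome genes together when protease activity is short. In astrocytes, as in other cells, the complex turns over most short-lived and damaged proteins.

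Of the 43 genes, 31 encode the constitutive subunits of the 20S core and 19S cap measured here, 3 encode assembly chaperones of the cap (Psmd5, Psmd9 and Psmd10), and 4 encode activators (Psme1 to Psme4). Another 3 encode forms tied to a tissue or to interferon, namely Psma8 of the testis, Psmb10 and the thymic Psmb11. Psmc3ip carries the prefix only because its protein binds PSMC3. It acts in meiotic recombination and is not a proteasome subunit. Psme2b is a near-copy of Psme2, so reads may be split between them and both are uncertain. Low counts removed Psma8, with 3 to 17 counts per library, and Psme2b, with 0 to 10, and the other 41 genes were tested.

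The libraries held 17460086 to 20334440 counts. Adgrb1 stood at 299, 363 and 317 CPM (counts scaled to library size with the trimmed mean of M values) in WT and at 158, 140 and 117 CPM in KO, so its direction matched the labels in 6 of 6 libraries, with an edgeR adjusted p of 0.0684. All 20 astrocyte markers checked were detected, and they summed to 61300 to 69800 CPM in WT and 71400 to 92000 CPM in KO. Of these markers 19 lay above 0 with a median log2 fold change of 0.26. An unadjusted edgeR p under 0.05 with a higher mean in KO was reached by 3, beside 2.34% of all genes tested. The KO libraries lay wholly above WT for 4, beside 5.28% of all genes. Markers of other cells were present too. The 15 markers of mature oligodendrocytes summed to 11600 to 19600 CPM in WT and 14800 to 17300 CPM in KO. Of them 13 had a log2 fold change below 0, with a median of -0.97. Lower in KO at an unadjusted p under 0.05 were 11 of the 15, beside 3.83% of all genes. The KO libraries lay wholly below WT for 11, beside 5.87% of all genes. Of 13 markers of oligodendrocyte precursors 10 lay below 0 (median -0.51), 8 were lower at such a p, and 7 lay wholly below WT. The 20 microglia and macrophage markers summed to 2140 to 3100 CPM in WT and 1860 to 2310 CPM in KO. Of them 18 lay below 0 (median -0.31), 5 were lower at such a p, and 4 lay wholly below WT. In bulk RNA, fewer cells of a type and less RNA per cell cannot be told apart, and the part of other cell types in the values below was not tested.

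No proteasome gene passed the test between KO and WT. At an adjusted p of 0.05 edgeR called 0 of the 41 genes, where it called 0 of all 14131 genes tested (0% of them). At an unadjusted p under 0.05 there were also 0 of 41, beside 6.16% of all genes (2.34% higher and 3.83% lower in KO). Over all genes DESeq2 called 14 higher and 62 lower in KO, and limma voom 1 and 3. Both also called 0 of the 41 after adjustment, although DESeq2 gave no adjusted p for Psmb11. At an unadjusted p under 0.05 DESeq2 had 0 of them, beside 7.03% of all genes, and limma voom 7 (17.1%), beside 18.9% of all genes. The smallest adjusted p of the 41 was 0.823 with edgeR, 0.80 with DESeq2 and 0.207 with limma voom. The log2 fold changes were small and mostly on 1 side: 36 of 41 lay above 0, against 51.9% of all genes, with a median of 0.14 against 0.01 over all genes. Scaled by total counts, which moved the median of all genes to -0.06, 29 of 41 lay above 0 with a median of 0.07. The WT and KO libraries did not overlap for 2 of the 41 genes (4.88%), Psmd7 and Psme1, against 11.2% of all genes. Both were higher in KO, where 5.28% of all genes were separated in that direction and 5.87% in the other. A p that misses the threshold does not show equal levels. The standard errors of most members, 0.13 to 0.24 on the log2 scale for the constitutive subunits, activators Psme1 to Psme3 and chaperones, set how small a difference could have been seen.

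**Figure D1:**
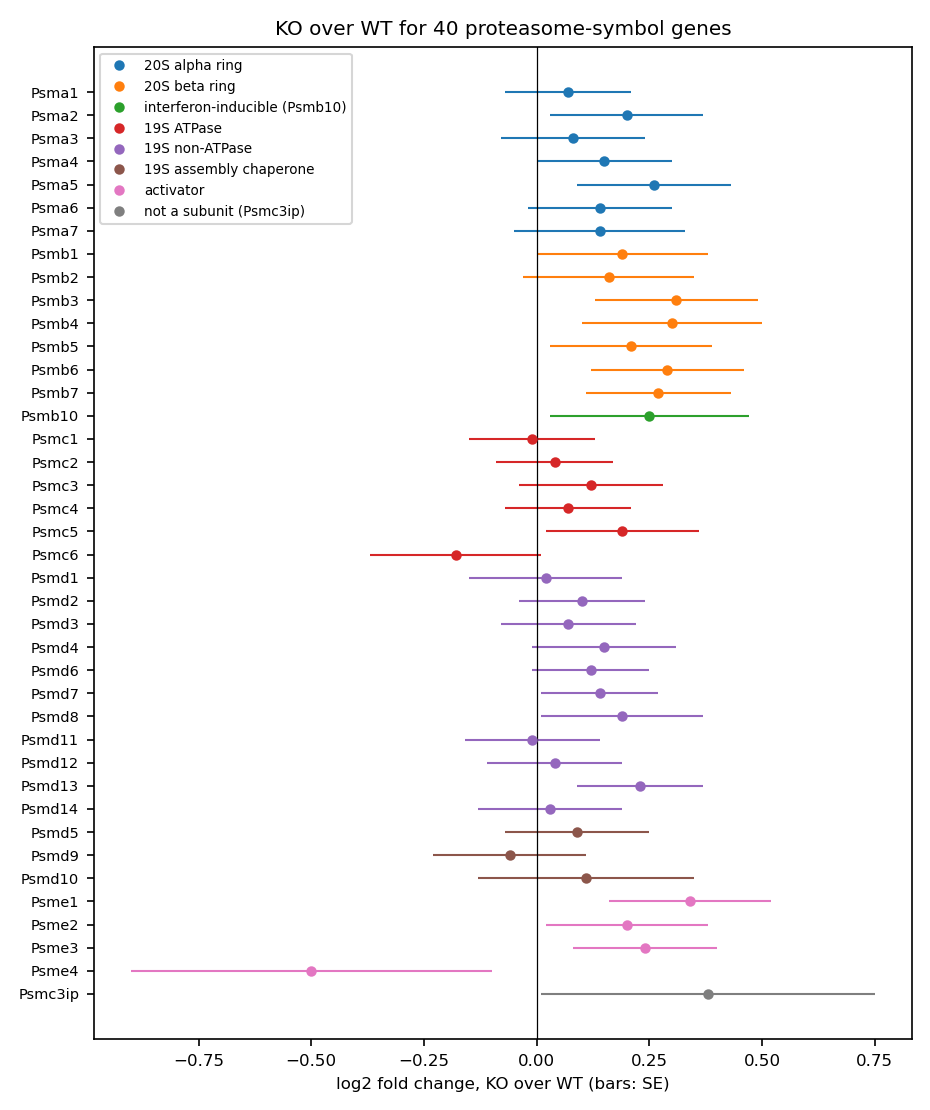
Log2 fold change of KO over WT (horizontal axis) with its standard error for 40 of the tested genes, one row per gene, coloured by role; Psmb11, at 2.03 with a standard error of 1.65, is left out for scale. Most points lie between 0 and 0.34, and Psme4 and Psmc6 lie farthest below 0.

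The promoters of 36 of the 43 genes were matched by symbol in a table of RefSeq windows on GRCm38.p6, each from 250 bases before to 50 bases after a start. Each was searched on both strands for the core of the antioxidant response element, the kind of site that NRF1 and NRF2 bind (TGACNNNGC), the CCAAT box (CCAAT), the core of ETS factor sites (CCGGAAG) and the core of YY1 sites (AAGATGG). The antioxidant core occurred in 17.1% of the 35 tested members and in 17.1% of the 10729 tested genes with a window, and the CCAAT box in 40.0% and 42.9%. The ETS core occurred in 37.1% of members against 18.5%, and the YY1 core in 20.0% against 8.19%. A match is a run of letters, not a shown binding site. The windows of 4 genes are given because they hold the antioxidant core and cover both directions of fold change: Psmb5 and Psmb6 encode catalytic subunits with values above 0, and Psmc6 and Psme4 had the lowest values of the 41. They were chosen after their values were seen. Capitals mark TGACNNNGC or CCGGAAG on either strand.
Psmb5 promoter, chr14:54617946-54618245, minus strand: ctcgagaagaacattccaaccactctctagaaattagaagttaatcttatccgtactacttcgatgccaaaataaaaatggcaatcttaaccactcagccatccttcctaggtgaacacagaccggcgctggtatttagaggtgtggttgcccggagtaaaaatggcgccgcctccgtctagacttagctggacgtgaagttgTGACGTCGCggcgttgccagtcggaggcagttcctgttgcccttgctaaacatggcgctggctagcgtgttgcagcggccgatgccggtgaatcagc
Psmb6 promoter, chr11:70525107-70525406, plus strand: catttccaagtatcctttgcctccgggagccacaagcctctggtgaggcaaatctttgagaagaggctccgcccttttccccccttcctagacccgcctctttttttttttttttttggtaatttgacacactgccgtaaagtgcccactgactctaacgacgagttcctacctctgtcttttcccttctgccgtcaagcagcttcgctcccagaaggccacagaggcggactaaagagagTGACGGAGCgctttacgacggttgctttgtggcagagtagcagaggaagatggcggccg
Psmc6 promoter, chr14:45329574-45329873, plus strand: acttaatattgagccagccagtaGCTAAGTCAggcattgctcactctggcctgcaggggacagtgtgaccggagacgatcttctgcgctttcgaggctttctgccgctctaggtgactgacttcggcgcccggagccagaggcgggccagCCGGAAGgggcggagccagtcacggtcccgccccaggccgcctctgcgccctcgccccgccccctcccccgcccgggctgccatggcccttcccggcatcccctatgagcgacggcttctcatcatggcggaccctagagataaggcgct
Psme4 promoter, chr11:30771525-30771824, plus strand: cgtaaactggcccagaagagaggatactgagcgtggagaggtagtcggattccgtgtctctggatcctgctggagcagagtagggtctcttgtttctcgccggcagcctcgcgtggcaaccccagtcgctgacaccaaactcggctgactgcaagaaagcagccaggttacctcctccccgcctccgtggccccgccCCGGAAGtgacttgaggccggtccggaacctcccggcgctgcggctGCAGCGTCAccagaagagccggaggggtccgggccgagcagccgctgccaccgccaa
Of these 2 cores, Psmb5 and Psmb6 hold the antioxidant one, and Psmc6 and Psme4 hold both. Psmb6 also holds the YY1 core, which is not in capitals.

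The catalytic subunits had log2 fold changes of 0.21 to 0.29, and none passed the test. The 20S core carries its protease sites on Psmb5 (chymotrypsin-like), Psmb6 (caspase-like) and Psmb7 (trypsin-like). Psmb5 held 79.1, 101 and 75.4 CPM in WT replicates 1, 2 and 3 and 117, 97.8 and 80.5 CPM in KO replicates 1, 2 and 3. Its 2 highest libraries were one of each genotype, so the groups overlapped, and its log2 fold change was 0.21 ± 0.18 (SE, edgeR adjusted p = 0.837). Psmb6 held 91.7, 122 and 91.7 CPM in WT and 145, 119 and 109 CPM in KO, with 0.29 ± 0.17 (adjusted p = 0.826). Psmb7 held 123, 141 and 112 CPM in WT and 170, 157 and 128 CPM in KO, with 0.27 ± 0.16 (adjusted p = 0.825). For both, WT replicate 2 lay inside the KO range and the other WT libraries lay below it. With the trend in GC content and length removed, Psmb5 stood at 0.01 and Psmb6 at 0.09, and without KO replicate 1 they stood at 0.05 and 0.15. The fit without the trend reversed the correlation of the members' fold changes with GC content, as given below. Psmb7 stood at 0.17 without KO replicate 1 and at 0.17 with a batch term for the GC trend. Psmb7 overlaps Nek6 on the opposite strand, and the use of strand in counting is not stated. Psmb5 overlaps the small gene Mir686 on its own strand. Both are uncertain.

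The other beta subunits complete the ring without cutting. Psmb4 held 121, 190 and 152 CPM in WT and 223, 192 and 154 CPM in KO. Its log2 fold change was 0.30 ± 0.20 (SE, edgeR adjusted p = 0.831). Psmb3 held 45.7, 69.8 and 55.7 CPM in WT and 80.6, 69.5 and 62.4 CPM in KO, with 0.31 ± 0.18 (adjusted p = 0.826). Without WT replicate 1 they stood at 0.15 (Psmb4) and 0.17 (Psmb3), without WT replicate 2 at 0.46 and 0.47, and without KO replicate 1 at 0.16 and 0.20. With the trend in GC content and length removed they stood at 0.18 and 0.13. Both were lowest in WT replicate 1 and highest in KO replicate 1, and WT replicate 2 lay among the KO libraries. Over the 7 beta subunits the fold changes ran from 0.16 to 0.31 with a median of 0.27. KO replicate 1 was the highest library for 6 of them and WT replicate 1 the lowest for 5.

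The alpha ring, whose subunits form the gate of the core, had a lower median than the beta ring, a difference that was not tested. All 7 log2 fold changes were above 0, from 0.07 for Psma1 to 0.26 for Psma5, with a median of 0.14. Psma1 stood at -0.01 when scaled by total counts. Psma3 stood at -0.01 without WT replicate 1, and Psma7 at -0.01 with the trend in GC content and length removed. The groups overlapped for each of the 7. Psma5 held 48.4, 71.9 and 68.8 CPM in WT and 73.6, 81.5 and 71.5 CPM in KO, with 0.26 ± 0.17 (SE, edgeR adjusted p = 0.831). Its low value in WT replicate 1 stood apart from the other 5 libraries. Psma4 overlaps AY074887 and Psma5 overlaps 1700010K24Rik, each on the other strand, and both are uncertain.

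The ATPases of the 19S cap had the lowest median of the 4 layers. Of the 6 ATPases, 4 had a log2 fold change above 0 and 2 below, between -0.18 and 0.19, with a median of 0.06, and Psmc2 and Psmc4 were also below 0 (-0.03 and -0.01) when scaled by total counts. Psmc1 held 149, 137 and 131 CPM in WT and 146, 145 and 122 CPM in KO. Psmc1 had a log2 fold change of -0.01 ± 0.14 (SE, edgeR adjusted p = 0.992). Psmc6 held 58.8, 50.1 and 60.3 CPM in WT and 44.0, 41.0 and 63.8 CPM in KO, with -0.18 ± 0.19 (adjusted p = 0.848). It was highest in KO replicate 3 and lowest in the other KO libraries, so the KO range enclosed the WT range. Its direction turned with the trend in GC content and length removed, where it stood at 0.12. That fit also reversed the correlation of the members' fold changes with GC content.

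Of the 11 non-ATPase subunits 10 lay above 0, with a median of 0.10 and a range of -0.01 to 0.23, although Psmd1, Psmd3, Psmd12 and Psmd14 lay between -0.05 and -0.01 when scaled by total counts. Psmd13, a scaffold subunit of the lid, held 81.8, 92.3 and 87.5 CPM in WT and 114, 102 and 90.9 CPM in KO. Its log2 fold change was 0.23 ± 0.14 (SE, edgeR adjusted p = 0.826). Of the KO libraries, replicate 3 alone lay in the WT range, and without KO replicate 1 the value was 0.14. The gene overlaps Sirt3 on the other strand, which makes it uncertain. Psmd7, which pairs with the lid's deubiquitinase, held 129, 129 and 110 CPM in WT and 138, 137 and 130 CPM in KO, and its groups did not overlap although the log2 fold change was 0.14 ± 0.13 (adjusted p = 0.845). Psmd14, the deubiquitinase itself, held 50.3, 53.1 and 52.7 CPM in WT and 47.2, 49.4 and 63.2 CPM in KO, with 0.03 ± 0.16. Its KO libraries lay on both sides of all WT libraries. Psmd11, another lid subunit, held 55.8, 45.3 and 56.8 CPM in WT and 51.6, 54.0 and 51.2 CPM in KO, with -0.01 ± 0.15. Psmd1 overlaps Gm21972 on its own strand and Htr2b on the other, and Psmd3 overlaps Gm12356 on the other strand. Both are uncertain.

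The assembly chaperones of the cap leave the finished complex. Psmd9 held 46.8, 51.5 and 36.8 CPM in WT and 46.8, 42.2 and 41.0 CPM in KO. The log2 fold change of Psmd9 was -0.06 ± 0.17 (SE, edgeR adjusted p = 0.947). Psmd5 and Psmd10 were at 0.09 and 0.11. The groups overlapped for each of the 3, and Psmd9 overlaps Gm26745 on the other strand, which makes it uncertain.

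Apart from Psmb11 and Psmc3ip, the highest and the lowest log2 fold change of the set belonged to activators. Psme1 encodes the alpha chain of the interferon-inducible PA28 cap. It held 30.0, 32.1 and 35.0 CPM in WT and 50.2, 37.0 and 35.8 CPM in KO. Its log2 fold change was 0.34 ± 0.18 (SE, edgeR adjusted p = 0.823), the smallest p of the 41. The groups did not overlap, but KO replicate 3 exceeded WT replicate 3 by under 1 CPM, and without KO replicate 1 the log2 fold change was 0.16. Psme1 overlaps Emc9 on the other strand, which makes it uncertain. Psme2, the beta chain, held 32.1, 45.3 and 32.2 CPM in WT and 41.7, 43.8 and 40.5 CPM in KO, with 0.20 ± 0.18. WT replicate 2 was its highest library, and the value was 0.38 without it, 0.12 without WT replicate 1 or 3 and 0.07 with the trend in GC content and length removed. Psme3, the nuclear PA28 gamma, held 54.9, 75.9 and 69.0 CPM in WT and 79.6, 85.4 and 70.5 CPM in KO, with 0.24 ± 0.16 (adjusted p = 0.833) and 0.12 without WT replicate 1.

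Psme4 went the other way. It encodes PA200, the large single-chain activator of the nucleus, and held 47.2, 31.8 and 55.5 CPM in WT and 16.6, 26.4 and 52.1 CPM in KO. KO replicate 3 lay at the level of WT replicates 1 and 3 and the other KO libraries below all WT libraries. The log2 fold change was -0.50 ± 0.40 (SE, edgeR adjusted p = 0.837), and it moved to -1.06 without KO replicate 3 (adjusted p = 0.111), to -0.20 without KO replicate 1 and to -0.27 with the GC trend as a batch term. After Psmb11, Psme4 varied most of the 41, with a within-group SD of 0.65 on the log2 scale, where the 31 constitutive subunits had a median of 0.19 and a maximum of 0.30 and all genes tested a median of 0.28.

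The inducible Psmb10 stood below the subunit it replaces. Psmb10, which replaces Psmb7 in the immunoproteasome, held 22.6, 29.0 and 24.9 CPM in WT and 38.9, 28.3 and 24 CPM in KO. Its log2 fold change was 0.25 ± 0.22 (SE, edgeR adjusted p = 0.837). KO replicate 1 alone stood above WT, and without it the value was 0.03, while it was 0.10 with the trend in GC content and length removed. Per kilobase of transcript, Psmb10 made up 15.3% ± 1.21 (SD, n = 3) of the sum of Psmb10 and Psmb7 in WT and 14.9% ± 1.63 in KO. The other inducible subunits, which lie outside the set, were lower still: Psmb8 made up 4.92% ± 0.654 and 3.98% ± 0.545 of its sum with Psmb5, and Psmb9 0.395% ± 0.160 and 0.711% ± 0.320 of its sum with Psmb6. Psmb9 held 0.328, 1.03 and 0.747 CPM in WT and 1.15, 2.19 and 1.10 CPM in KO, and Psmb8 8.36, 8.09 and 7.23 CPM and 7.70, 7.16 and 6.98 CPM. The Psmb9 groups did not overlap (log2 fold change 1.07 ± 0.74), at 6 to 41 counts per library. Psmb9 overlaps Tap1 and Psmb8 overlaps Gm20496, each on the other strand, and both are uncertain.

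Psmb11, the thymic beta subunit, passed the filter on low counts through a few libraries. It held 0, 27 and 5 counts in WT and 0, 26 and 118 counts in KO, so that replicates of one genotype ranged from no counts to over 100. Its log2 fold change of 2.03 ± 1.65 (SE, edgeR adjusted p = 0.837) was 0.23 without KO replicate 3 and 4.18 without WT replicate 2. The gene lies at 54621433 to 54629556 on chromosome 14 (GRCm38), next to Psmb5 at 54614119 to 54618022. Psmc3ip, the meiotic protein gene taken in by its symbol, held 3.33, 4.84 and 4.73 CPM in WT and 3.87, 5.61 and 7.38 CPM in KO, with 0.38 ± 0.37 (adjusted p = 0.845). It stood at 0.14 without KO replicate 3, 0.23 without WT replicate 1 and 0.58 without KO replicate 1, and overlaps Mlx on the opposite strand.

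Levels per kilobase differed among subunits that are present in equal copies in the complex. Levels between genes are compared here as mean CPM per kilobase of transcript over the 6 libraries. Psmb4 (145), Psmb6 (142) and Psmb7 (119) were the highest of the 41. The beta ring ran from 58.8 (Psmb1) to 145, a ratio of 2.47, and the alpha ring from 25.5 (Psma3) to 110 (Psma6), a ratio of 4.31. The ATPases ran from 23.7 for Psmc6 to 105 for Psmc3, and the non-ATPase subunits from 18.4 for Psmd11 to 81.3 for Psmd7. Psmc3 overlaps Slc39a13 on the other strand, which makes it uncertain. The assembly chaperones stood below every constitutive subunit by this length, at 8.61 for Psmd5, 14.1 for Psmd10 and 17 for Psmd9. Psme4 (5.90), Psmc3ip (3.84) and Psmb11 (0.356) were the lowest. Neighbours in this order overlapped: Psmb4 held 130 ± 28.9 (SD, n = 3) in WT and Psmb6 127 ± 21.7. The order and the ratios depend on the length used. Psma3 and Psma4 held 70.6 and 67.9 CPM in WT, but 24.8 and 58.2 CPM per kilobase. Their transcripts have 2846 and 1165 bases. With the total exonic length of each gene in place of its principal transcript, Psmb5 came first at 102 and Psmb7 thirteenth at 40.5, while Psmb11, Psmc3ip and Psme4 stayed the lowest.

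**Figure D2:**
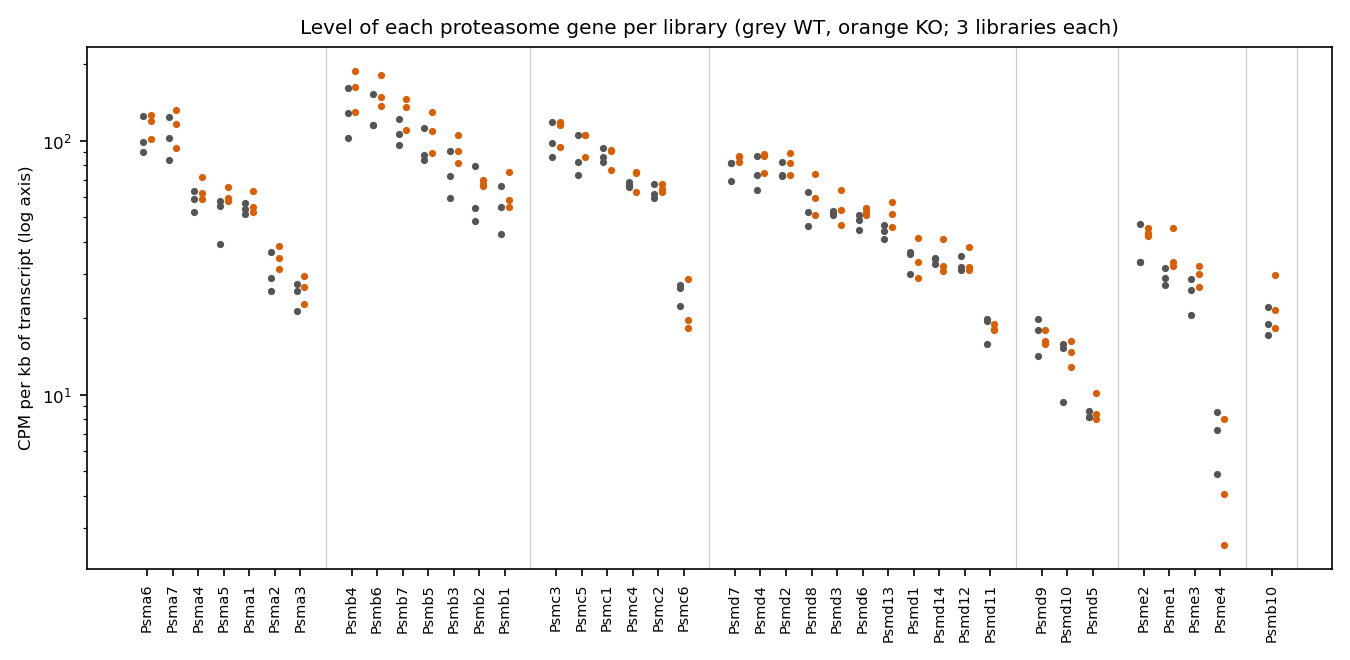
Level of each gene in CPM per kilobase of transcript (vertical log axis), one point per library, grey for WT and orange for KO, with genes grouped as alpha ring, beta ring, ATPases, non-ATPase subunits, assembly chaperones, activators and Psmb10. The spread between genes exceeds the spread between genotypes, and Psme4 spreads most between libraries; Psmb11 is left out.

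The layers of the complex can also be read per library as the mean log2 CPM of their genes. The beta ring stood at 6.26, 6.77 and 6.40 in WT and at 6.94, 6.72 and 6.54 in KO. The ATPases stood at 6.69, 6.84 and 6.73 in WT and at 6.83, 6.81 and 6.72 in KO. The beta ring thus varied over a wider range than the ATPases with which it forms 1 particle. This contrast was not planned, and these layers had the highest and the lowest median log2 fold change (0.27 and 0.06). The difference of the 2 layers, beta ring minus ATPases, was -0.43, -0.06 and -0.34 in WT and 0.11, -0.09 and -0.18 in KO, with the groups overlapping through WT replicate 2. Its mean was 0.22 higher in KO. The same comparison gave 0.13 for the 20S core minus the 19S cap and -0.10 for the alpha minus the beta ring. Transcripts of the beta ring were shorter (median 899 bases against 1614) and had a higher GC content (median 52.2% against 50.5%). All 43 genes together made up 3080, 3630 and 3180 CPM in WT and 3820, 3690 and 3370 CPM in KO. The KO range began below WT replicate 2.

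**Figure D3:**
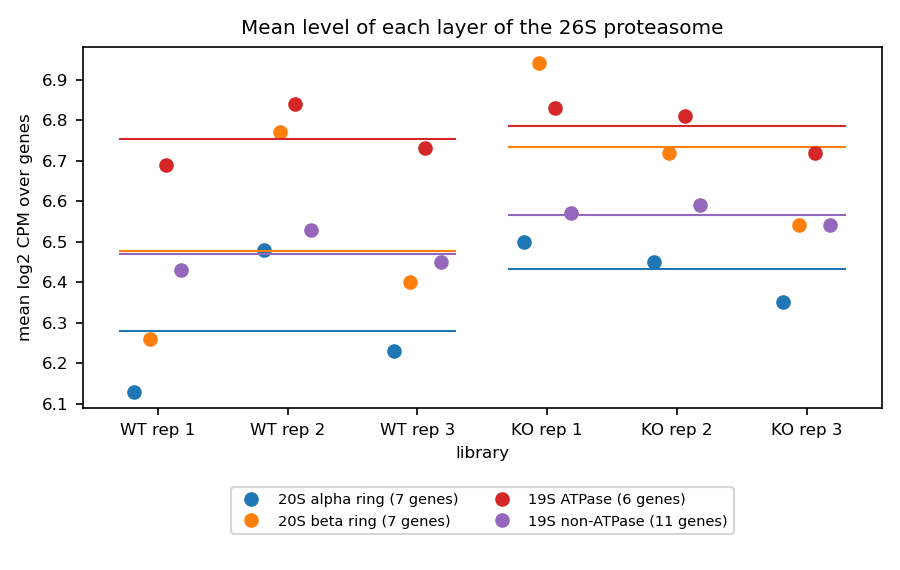
Mean log2 CPM (vertical axis) of the genes of each layer in each library, with lines at the mean over the 3 libraries of a genotype. The beta ring runs from 6.26 to 6.94 and the ATPases from 6.69 to 6.84, and WT replicate 2 lies near the KO libraries.

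The libraries also split in a way that only partly followed the genotype. Over all genes, the Spearman correlation of a gene's deviation with its GC content was 0.0625 in WT replicate 2 and 0.40 and 0.361 in KO replicates 1 and 2, the first set. It was -0.166 and -0.347 in WT replicates 1 and 3 and -0.405 in KO replicate 3, the second set. The same correlation with transcript length was -0.239, -0.343 and -0.242 in WT replicate 2 and KO replicates 1 and 2 and 0.286, 0.285 and 0.236 in WT replicates 1 and 3 and KO replicate 3, so it parted the same libraries. The sets were formed from these same data, by the sign of the correlation with GC content. For 21 of the 41 (51.2%) the first set lay wholly above the second, against 16% of all genes, and for 2 of 41 (4.88%) it lay wholly below, against 15.9%. The shares over all genes are not matched for transcript length. The 21 included Psmb1, Psmb3, Psmb4, Psmb5, Psmb6, Psmb7 and Psmb10. The 2 were Psmc6, which has the lowest GC content of the 41 at 37.0%, and Psme4, which has the longest transcript at 6491 bases. The set has short transcripts (median 1540 bases against 3064 over all genes tested) of usual GC content (49.8% against 50.4%). Across the 41 genes the log2 fold change had a Spearman correlation of -0.52 with transcript length and 0.44 with GC content, beside -0.25 and 0.30 over all genes with an annotation. These are descriptions over genes that share the same 6 libraries.

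**Figure D4:**
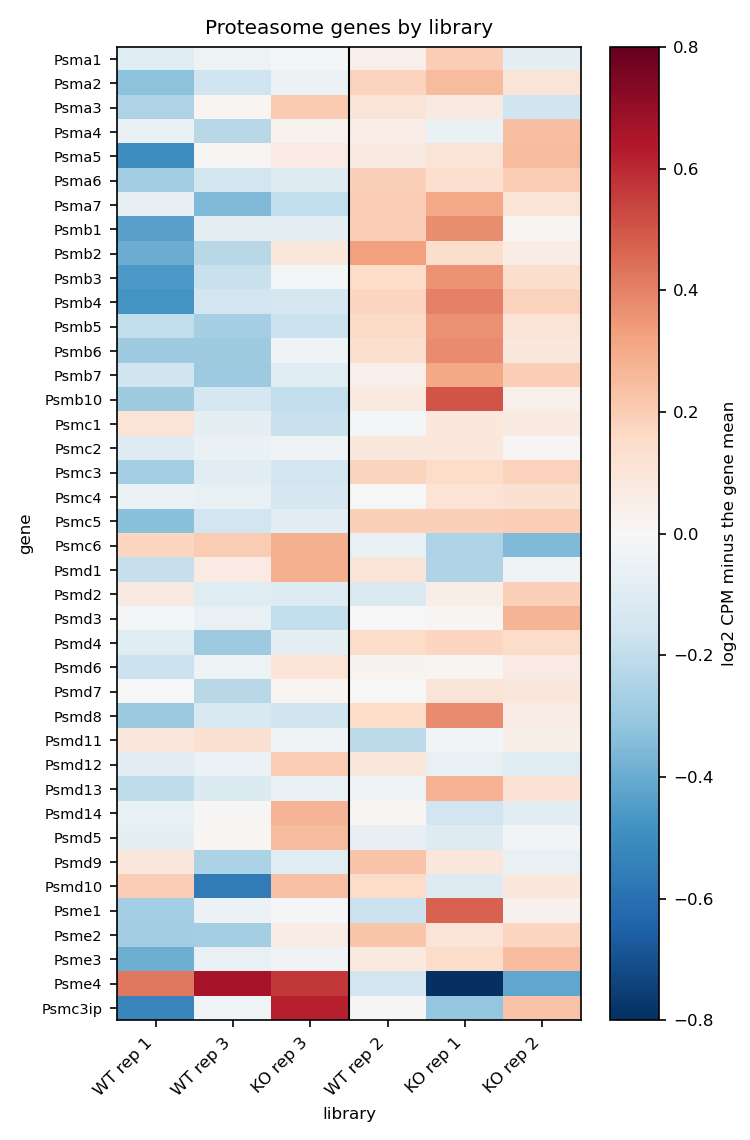
Log2 CPM of each gene minus its mean over the 6 libraries (colour, with the scale ending at 0.8 in each direction), one row per gene and one column per library; the black line parts the libraries by the trend with GC content. Most rows are blue left of the line and red right of it, and Psmc6 and Psme4 show the reverse.

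The genotypes were also compared within each set. For the 31 constitutive subunits the KO minus WT difference in mean log2 CPM was 0.13 over all libraries, 0.03 within the first set (1 WT and 2 KO libraries) and 0.12 within the second (2 WT and 1 KO). For the beta ring it was 0.26 over all libraries, and 0.06 and 0.21 within the sets. For the ATPases it was 0.04 over all libraries, and -0.01 and 0.01 within. With the set as a batch term in edgeR, the median log2 fold change of the 41 genes was 0.08 and 0 passed the threshold. With the trend in GC content and length removed per library, it was 0.10, 35 of 41 lay above 0, and 0 passed. In that fit the log2 fold change of the 41 had a Spearman correlation of -0.39 with GC content, beside -0.01 over all genes. It was 0.44 for the 41 before. For the 31 constitutive subunits it went from 0.40 to -0.54. The trend of these genes with GC content was thus reversed, not taken away, which limits the values of single genes from that fit. Each set has 1 genotype with a single library.

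**Figure D5:**
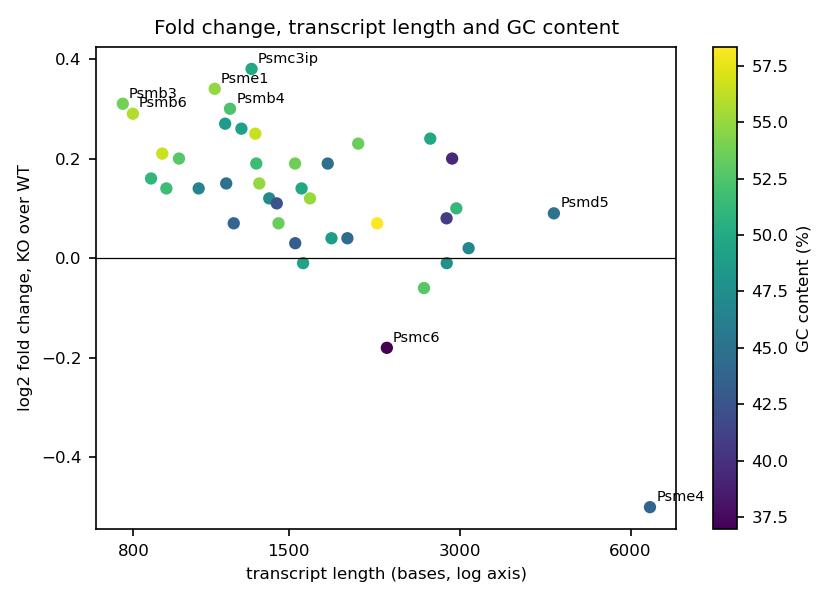
Log2 fold change of KO over WT (vertical axis) against transcript length (horizontal log axis), one point per gene, coloured by GC content, for 40 of the 41 tested genes. Short transcripts such as Psmb3 and Psmb6 lie highest among the subunits, and the long Psme4 and the GC-poor Psmc6 lie lowest, though Psmc6 stands at 0.12 with the trend in GC content and length removed.

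Genes that build, tune or feed the proteasome gave the same count. Over 5 lists with 43 such genes edgeR called 0, beside 0% of all genes, and 0 had an unadjusted p under 0.05, beside 6.16%. Of 7 genes for assembly, regulation (Psmf1) or nuclear import (Akirin2) of the core 5 lay above 0 and 2 below (median 0.16). Pomp, the maturation factor of the core, held 51.5, 84.9 and 67.1 CPM in WT and 86.7, 89.2 and 66.3 CPM in KO, with a log2 fold change of 0.25 ± 0.20 (SE, edgeR adjusted p = 0.837). WT replicate 1 was its lowest library, and WT replicate 2 lay among the KO libraries. Psmg1, which pairs alpha subunits, stood at 0.32 ± 0.22, with the KO libraries (15.2 to 17.4 CPM) above the WT libraries (10.7 to 14.6 CPM).

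Among 9 further cap proteins and partners, 4 lay above 0 and 5 below (median -0.04). The ubiquitin receptor gene Adrm1 was at 74.7 ± 10.1 CPM (SD, n = 3) in WT and 83.5 ± 19.7 CPM in KO, and the deubiquitinase gene Usp14 at 44.2 ± 3.61 and 39.0 ± 7.41 CPM. Zfand5 (-0.26 ± 0.18), whose protein stimulates the proteasome, and AI314180 (-0.27 ± 0.23), now named Ecpas, had the smallest p on the lower side. Of 10 genes of the NRF1 and NRF2 pathway 5 lay above 0 and 5 below (median 0.01). Nfe2l1 held 184, 173 and 156 CPM in WT and 204, 179 and 176 CPM in KO, with a log2 fold change of 0.12 ± 0.14 (SE, edgeR adjusted p = 0.857), and Nfe2l2 was at 0.02 ± 0.13. Of 6 ubiquitin and activating enzyme genes 4 lay above 0 (median 0.08), and of 12 ubiquitin shuttle and VCP genes 11 lay above 0 (median 0.07). Usp14 overlaps Thoc1 on the other strand and so is uncertain. The groups overlapped for each gene of the last 4 of the 5 lists. In a further list, 8 of 9 oxidative stress targets of NRF2 lay above 0 (median 0.21). Of these 9, 0 were called. An unadjusted p under 0.05 with a higher mean in KO was reached by 2, beside 2.34% of all genes. The groups did not overlap for 2, higher in KO, beside 5.28% of all genes. The cause was not tested.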

How the data were processed

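The authors deposited 1 table of estimated counts per gene symbol for 6 libraries, not normalized. TopHat2, featureCounts and the builds GRCm38 and mm9 are named, without versions or roles, per the submitters' processing notes; the annotation, strand use and treatment of multiply mapped reads were not given in these sources. Between 0.711% and 0.847% of values per library lay over 0.01 from a whole number, and all were rounded. Columns were matched to samples by name. Replicates differed beyond counting noise (chi-square per degree of freedom 22.3 to 89.1), so none was counted as a duplicate.

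Genotypes were compared with edgeR 4.0.16 in R 4.3.3, by its quasi-likelihood test with TMM normalization, filterByExpr and robust dispersions. P-values were adjusted by Benjamini-Hochberg over 14131 genes, with a threshold of 0.05. Log2 CPM used a prior count of 2. DESeq2 1.42.0 and limma 3.58.1 (voom with quality weights) were alternatives, beside other scalings and filters, leaving out each library, the replicate number as a block, and GC content with length (natural splines, 4 degrees of freedom per library).

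Coordinates, GC content and lengths of the principal transcript are from GENCODE M21 (GRCm38), not the authors', and 98.5% of symbols matched. The members and lists were chosen with earlier results of these data known. Named members are the catalytic subunits, Psmb10, the activators, Psmc3ip, the 6 of smallest p per direction, and the 3 of highest and lowest level per kilobase. Psma1, Psma3 to Psma6, Psmb1, Psmc3, Psmd5, Psmd7, Psmd10, Psmd14 and those named for a change of sign were added after their values were seen. Of 3 list symbols, the older form in the table was used (Shfm1, AI314180 and Ufd1l). Some genes of the lists around the proteasome are not reported here by name.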

Additional observations from a re-analysis of the deposited data

How the results depend on the processing

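No proteasome gene passed the threshold under any of the 16 alternatives run, and 29 (total counts, where the median of all genes was -0.06) to 37 of 41 to 43 tested lay above 0. Their median log2 fold change stayed between 0.07 and 0.25. It was 0.23 with limma voom and 0.09 to 0.25 when each library was dropped in turn, with 0.25 without WT replicate 2. Members at an unadjusted p under 0.05 numbered 7 (17.1%, all genes 18.9%) with limma voom, 4 (9.52%, all genes 7.98%) without WT replicate 2, 6 (14.6%, all genes 18%) without KO replicate 3, 2 (4.88%, all genes 11.3%) with the GC and length trend removed and the replicate block, and 0 in the other alternatives. Over all genes, the numbers higher and lower in KO were 14 and 62 with DESeq2, 2 and 4 when low counts were kept, 1 and 3 with limma voom, 4 and 17 with the GC and length trend removed, 16 and 88 with that and the replicate block, and 14 and 74 with a batch term for the GC trend. Leaving out a library gave 0 to 4 higher and 0 to 27 lower, the most without KO replicate 3. The replicate number as a block gave 7 and 37. Libraries of equal number correlated at 0.09, 0.15 and 0.28 in their deviations from the group means, and those of unequal number at -0.21 to 0.09. The labels do not state that equal numbers share an animal or a day. For that reason the numbers were not taken as pairs in the main fit.

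The sign changed under at least 1 alternative for 15 of the 41 genes, 7 of them with total counts. These 15 include 4 of the genes named by rule. Psmc1 was at 0.04 with limma voom and at 0.04 and 0.07 without WT replicate 1 and KO replicate 3 (range -0.06 to 0.07 over the fits without a library). Psmc6 was at 0.12 with the GC and length trend removed and 0.11 with the block added. Psmd11 was at 0.02 in both of these fits, at 0.04 with the batch term, and between -0.12 and 0.05 over the fits without a library. Psmd9 lay between -0.18 and 0.04 there. The cause was not tested. Psmb11 and Psme4 moved most, from 0.23 to 4.18 and from -1.06 to -0.20. With 3 libraries a group, spread between libraries limits what can be seen, more than counting error does for the constitutive subunits.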
